A study of Mus musculus with 24 samples.

Results

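The granzymes, perforin, Fas ligand and interferon gamma were followed through 24 RNA-seq libraries of the mouse colon carcinoma line CT26 with and without a knockout of Sun1. The 10 genes, Gzma, Gzmb, Gzmc, Gzmd, Gzme, Gzmf, Gzmk, Prf1, Fasl and Ifng, were taken by their names from the 35976 genes in the deposited tables. That rule uses no measured value, but the genes were chosen with earlier results of these data known. All 10 were measured in every library, and all 10 passed the filter on low counts in whole tumors.

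These genes encode the weapons of cytotoxic T cells and natural killer cells. Granzymes are serine proteases stored in secretory granules, and perforin, the product of Prf1, opens the target cell membrane so that they can enter. Granzyme B cuts caspases and other substrates and so starts apoptosis, granzyme A is a tryptase that acts through other substrates, and granzymes C to G are rodent relatives of granzyme B in the same gene cluster. Fas ligand, from Fasl, kills through the death receptor Fas without granules, and interferon gamma, from Ifng, is the cytokine by which these cells activate macrophages and raise antigen presentation.

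Sun1 encodes an inner nuclear membrane protein that links the nucleus to the cytoskeleton. Whole tumors gave 7 libraries from Sun1 knockout CT26 cells and 8 from control line 1, whose genotype is given as wild type. Tumor cells isolated from tumors gave 2 knockout libraries and 2 from each of control lines 1 and 2, and cultured cells gave 1 library from the knockout line and 1 from each control line. The cells had been injected under the skin of BALB/c mice, tumors were collected on day 14, and no other treatment, age or host gene change is named. Lymphocytes in these tumors come from the host and not from the edited line. Since a single knockout line is named, loss of Sun1 cannot be told apart from whatever else sets that line off. Whether replicates are separate animals is not given, and the p-values cover the spread between these libraries alone.

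Libraries held 14140769 to 24651279 expected counts in tumors, 17068356 to 22593612 in purified cells and 18832201 to 20716917 in culture. Levels are given in CPM, read counts scaled to the size of each library. Sun1 averaged 57.5 ± 5.19 CPM in knockout tumors (SD, n = 7) and 179 ± 8.61 CPM in control tumors (SD, n = 8), with no overlap, so the labels matched the targeted gene. Of markers fixed for the cells a tumor can hold, 9 of 11 T cell genes rose in knockout tumors and 0 fell, with a summed level of 107 to 187 CPM in knockout tumors and 46.7 to 103 CPM in control tumors. Of 6 tested natural killer cell markers 3 rose (summed level 61.6 to 114 CPM in knockout tumors and 23 to 55.1 CPM in control tumors), of 9 mast cell markers 7 rose, of 7 macrophage markers 2 rose, of 4 endothelial markers 1 rose, and of 4 skeletal muscle genes 3 rose, with 0 lower in each list. Klra8, a natural killer cell receptor, was at 0 in all libraries. Of 4 tested colon epithelium markers 2 fell, the keratin genes Krt18 and Krt20, and 0 rose, while in purified cells, where 4 were also tested, Krt18 alone fell. The only tested B cell marker rose. In RNA from whole tumors, fewer cells of a type and less RNA per cell cannot be told apart, which holds for every tumor value below.

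Levels between genes were compared in TPM, the deposited transcript abundances, which allow for gene length. In knockout tumors the order by median was Gzmd (491 TPM), Gzmf (466 TPM), Gzmc (265 TPM), Gzme (188 TPM), Gzmb (168 TPM), Gzma (92.9 TPM), Prf1 (40.6 TPM), Ifng (11.2 TPM), Fasl (2.82 TPM) and Gzmk (2.24 TPM). In control tumors it was Gzmd (275 TPM), Gzmf (257 TPM), Gzmc (189 TPM), Gzmb (128 TPM), Gzme and Gzma (102 TPM each), Prf1 (38.5 TPM), Ifng (5.81 TPM), Fasl (1.35 TPM) and Gzmk (1.12 TPM). Neighbours among the granzymes of the upper part of this order overlapped widely in their ranges over tumors, as did Fasl and Gzmk. The steps from Prf1 (16 to 68.1 TPM in knockout tumors, 14.6 to 54.5 TPM in control tumors) to Ifng (9.84 to 13.5 TPM in knockout tumors, 2.93 to 10.9 TPM in control tumors) and from Ifng to Fasl showed no overlap in either genotype. By median, Prf1 and all granzymes but Gzmk stood above Ifng and Fasl in both genotypes, and Gzmk stood below them.

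**Figure D1:**
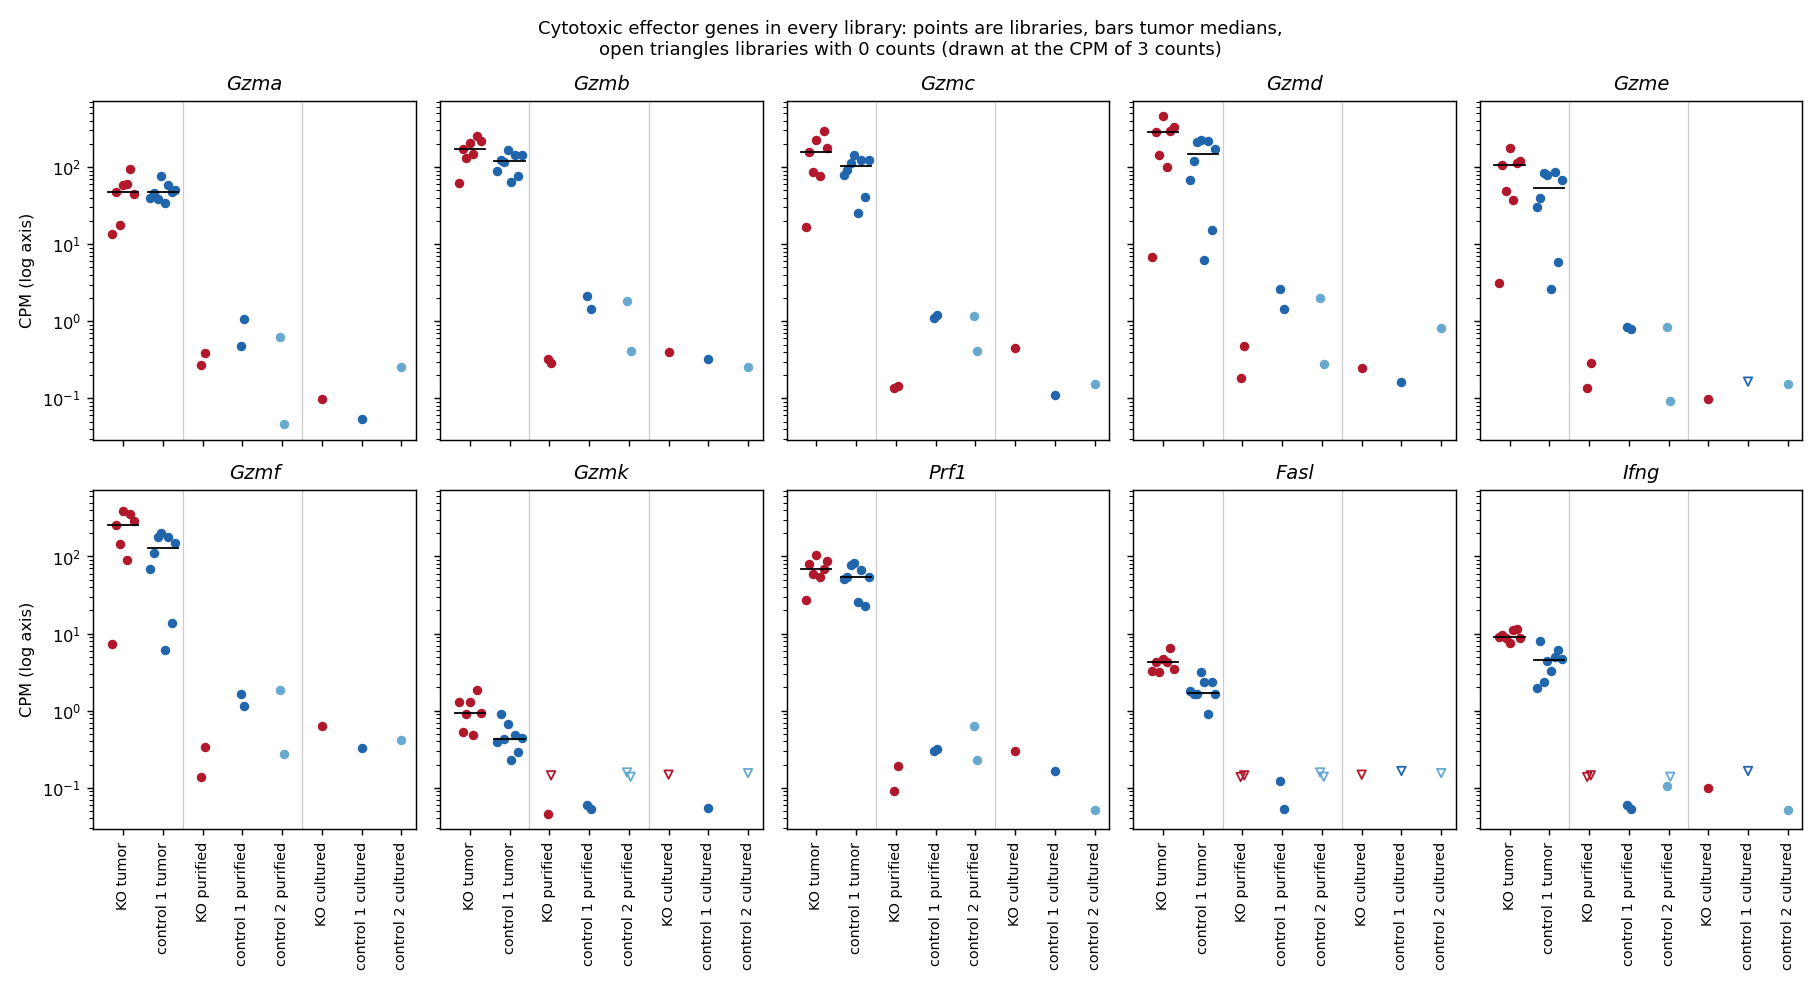
Level of each gene (CPM, log axis) in every library, one panel per gene, with knockout libraries in red, control line 1 in dark blue and control line 2 in light blue. Points are libraries, bars are medians over tumors, and open triangles are libraries with 0 counts drawn at the CPM of 3 counts. Gzmd in tumors spans 6.72 to 457 CPM in the knockout and 6.25 to 224 CPM in the control, while purified and cultured cells lie at or below 2.61 CPM.

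Between knockout and control tumors, 3 of the 10 genes rose and 0 fell in edgeR's quasi-likelihood test (adjusted p under 0.05 over 13752 genes). In the same comparison 18.1% of all tested genes rose and 19.0% fell, so 3 of 10 is not read as particular to these genes. At an unadjusted p under 0.05 the counts were also 3 and 0, and DESeq2 called the same numbers, 3 and 0. The median log2 fold change of the 10 genes was 0.83, and over all tested genes it was 0.01. The genes that rose were Fasl, Ifng and Gzmk, which are the lowest 3 of the 10 in TPM. In no gene were the genotypes fully separated, where 3.12% of tested genes had every knockout tumor above every control tumor and 6.08% every knockout tumor below.

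Fasl, the ligand of the death receptor Fas, had a lowest, median and highest level of 3.17, 4.27 and 6.44 CPM in knockout tumors and 0.898, 1.71 and 3.17 CPM in control tumors. The groups met only at 3.17 CPM, the level of knockout tumor 3 and control tumor 4. The log2 fold change of knockout over control was 1.14 ± 0.22 (SE), a ratio of 2.21 (edgeR adjusted p = 0.000551). Knockout tumor 6 was the highest. These levels rest on 63 to 104 counts per knockout library and 22 to 52 per control library.

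Ifng, the cytokine, had 7.65, 9.02 and 11.3 CPM as lowest, median and highest level in knockout tumors and 1.98, 4.57 and 8.06 CPM in control tumors. Only control tumor 2, at 8.06 CPM, reached into the knockout range. That tumor also had the highest Cd3e of the control group, 6.88 CPM, where Cd3e encodes a chain of the T cell receptor complex. The log2 fold change was 1.08 ± 0.22 (edgeR adjusted p = 0.00121). Ifng was also the steadiest of the 10 genes among knockout tumors, with a coefficient of variation of 14% against 44.6% among control tumors.

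Gzmk encodes a tryptase found in less differentiated effector T cells. It had 0.481, 0.944 and 1.86 CPM as lowest, median and highest level in knockout tumors and 0.23, 0.435 and 0.918 CPM in control tumors, and the groups overlapped. Its log2 fold change was 1.11 ± 0.34 (edgeR adjusted p = 0.0143), from 9 to 30 counts per knockout library and 5 to 18 per control library. For Fasl, Ifng and Gzmk the call held when any 1 tumor was left out, and their highest adjusted p was then 0.00151, 0.00319 and 0.0415. In the authors' deposited table, which runs control over knockout, Fasl stood at -0.95, Ifng at -1.06 and Gzmk at -1.19 on the log2 scale, so that a negative value there means a higher level in the knockout.

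The more abundant granule genes did not pass. Gzma, the granzyme A gene, had 13.6, 47.9 and 95.7 CPM as lowest, median and highest level in knockout tumors and 34.1, 47.2 and 75.6 CPM in control tumors. Its log2 fold change was -0.01 ± 0.35 (edgeR adjusted p = 0.987). Both the lowest and the highest Gzma levels of all tumors were in the knockout group.

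Gzmb, the granzyme B gene, had 62.4, 172 and 253 CPM in knockout tumors and 64.4, 121 and 167 CPM in control tumors, again as lowest, median and highest level. The log2 fold change was 0.56 ± 0.28 (edgeR adjusted p = 0.129). Without knockout tumor 1 it was 0.70 ± 0.22 and passed (adjusted p = 0.0271), which brought the count of genes that rose to 4. Prf1, the perforin gene, had 27.1, 69.1 and 105 CPM in knockout tumors and 23.1, 54.5 and 82.9 CPM in control tumors, and its log2 fold change was 0.35 ± 0.31 (edgeR adjusted p = 0.406).

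Gzmc, next to Gzmb in the genome, had 16.9, 157 and 292 CPM in knockout tumors and 25.6, 103 and 143 CPM in control tumors (log2 fold change 0.68 ± 0.50, edgeR adjusted p = 0.306). Gzmd had 6.72, 284 and 457 CPM in knockout tumors and 6.25, 146 and 224 CPM in control tumors (0.86 ± 0.77, adjusted p = 0.405). Gzme had 3.12, 105 and 175 CPM in knockout tumors and 2.62, 53.3 and 86.7 CPM in control tumors (0.81 ± 0.73, adjusted p = 0.405). Gzmf had 7.24, 254 and 388 CPM in knockout tumors and 6.21, 130 and 202 CPM in control tumors (0.95 ± 0.75, adjusted p = 0.338). The medians of these genes were higher in knockout tumors, yet the lowest levels of both genotypes were alike and the standard errors were close to the differences.

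Gzmb to Gzmf lie within 145 kb on mouse chromosome 14 (chr14:56117619-56262334, GRCm38, minus strand), in the order Gzme, Gzmd, Gzmg, Gzmn, Gzmf, Gzmc, Gzmb. Gzma and Gzmk lie on chromosome 13, Prf1 and Ifng on chromosome 10 and Fasl on chromosome 1. Gzmd and Gzme are close copies, with 93.3% identity over their coding sequences, and Gzmd shared 83.7% with Gzmf, 71.6% with Gzmc and 65.4% with Gzmb. Reads of Gzmd, Gzme, Gzmf and the neighbour Gzmg could therefore be assigned to the wrong copy, and the values of single copies are uncertain to that extent. All 240 expected counts of the 10 genes were whole numbers, as were 90.7% of the values above 0 over all genes, so no fraction of a read assigned to several copies is seen in them. With the counts of Gzmd, Gzme, Gzmf and Gzmg summed, the log2 fold change was 0.91 ± 0.78 (edgeR adjusted p = 0.382).

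The promoter windows of genes that varied together among tumors are shown beside that of Ifng, which did not vary with them. Each runs from 250 bases before to 50 bases after the RefSeq transcription start (GRCm38.p6), 5′ to 3′ on the gene's strand. Capitals mark TGTGGT (the Runx core, on either strand, so that ACCACA is the same match) and TGANTCA (AP-1). The windows are chr14:56132544-56132843 for Gzmd, chr14:56120576-56120875 for Gzme, chr14:56211358-56211657 for Gzmf and chr14:56262285-56262584 for Gzmb, all minus strand, and chr10:61297586-61297885 for Prf1 and chr10:118440796-118441095 for Ifng, both plus strand.
Gzmd: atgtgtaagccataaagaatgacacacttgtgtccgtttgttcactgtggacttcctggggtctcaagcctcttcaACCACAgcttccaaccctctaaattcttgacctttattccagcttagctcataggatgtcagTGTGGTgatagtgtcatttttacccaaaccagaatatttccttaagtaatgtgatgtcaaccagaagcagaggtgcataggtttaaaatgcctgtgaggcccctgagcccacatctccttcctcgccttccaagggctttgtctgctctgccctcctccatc
Gzme: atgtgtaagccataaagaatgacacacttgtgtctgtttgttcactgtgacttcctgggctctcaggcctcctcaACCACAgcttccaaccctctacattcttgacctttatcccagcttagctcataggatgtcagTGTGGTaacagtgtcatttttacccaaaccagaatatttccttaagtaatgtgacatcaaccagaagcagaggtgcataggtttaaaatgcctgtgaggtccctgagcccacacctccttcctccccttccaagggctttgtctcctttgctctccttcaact
Gzmf: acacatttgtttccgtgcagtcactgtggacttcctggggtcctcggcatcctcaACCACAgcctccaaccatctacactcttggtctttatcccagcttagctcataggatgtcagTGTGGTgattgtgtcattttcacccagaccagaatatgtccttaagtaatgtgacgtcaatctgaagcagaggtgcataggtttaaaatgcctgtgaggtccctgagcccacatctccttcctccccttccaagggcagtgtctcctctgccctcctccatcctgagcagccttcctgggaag
Gzmb: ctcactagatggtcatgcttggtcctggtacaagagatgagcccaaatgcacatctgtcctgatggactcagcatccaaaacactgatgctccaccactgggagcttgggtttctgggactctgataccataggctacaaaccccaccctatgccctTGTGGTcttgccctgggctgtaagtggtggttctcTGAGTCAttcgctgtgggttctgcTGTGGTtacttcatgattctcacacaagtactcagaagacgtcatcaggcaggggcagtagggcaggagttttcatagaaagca
Prf1: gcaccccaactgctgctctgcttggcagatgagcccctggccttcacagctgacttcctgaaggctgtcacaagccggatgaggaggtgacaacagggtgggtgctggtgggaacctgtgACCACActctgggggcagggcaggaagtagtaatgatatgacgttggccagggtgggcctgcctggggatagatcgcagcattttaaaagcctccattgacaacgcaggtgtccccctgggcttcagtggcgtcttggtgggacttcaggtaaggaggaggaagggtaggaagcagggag
Ifng: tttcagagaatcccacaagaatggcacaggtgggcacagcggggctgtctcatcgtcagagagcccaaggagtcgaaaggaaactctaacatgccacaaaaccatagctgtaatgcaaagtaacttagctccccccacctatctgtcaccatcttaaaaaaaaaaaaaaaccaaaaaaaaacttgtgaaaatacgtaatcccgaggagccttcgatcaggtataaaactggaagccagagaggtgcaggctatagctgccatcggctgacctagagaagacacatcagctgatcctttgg

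TGTGGT occurred in the windows of 7 of the 10 genes, Gzma, Gzmb, Gzmc, Gzmd, Gzme, Gzmf and Prf1, and in 16.8% of 32851 promoter windows of the same length. TGANTCA occurred in that of Gzmb alone among the 10 (7.81% of all windows), and GGTGTGA, a T-box motif searched on both strands, in that of Gzmk alone (3.98% of all windows). No match overlapped another motif, and the windows of Fasl and Ifng held none of the 3. Counted from the transcription start, the Runx core matches lay at -174 to -169 and -112 to -107 in Gzmd and at -175 to -170 and -113 to -108 in Gzme, and these windows were 93.4% identical. Gzmb shared 43.5% of its window with Gzmd. Related copies share their sequence by descent, so the windows of the cluster do not count as independent.

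Gzmb to Gzmf and Prf1 varied widely across tumors. The coefficient of variation of Gzmd was 66.7% among knockout tumors and 69.8% among control tumors, and the median over expressed genes was 11.6% and 11.5% in the same order. That of Gzmb was 37.1% among knockout tumors and 31.4% among control tumors. In the same order Prf1 had 36.8% and 39.7%, Gzma 57.7% and 26.9%, Gzmk 46.3% and 45.3%, and Fasl 26.6% and 35.3%. The low value of Ifng among knockout tumors, given above, was near that median. At the low end stood 3 tumors, knockout tumor 1 and control tumors 5 and 7.

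Knockout tumor 1 had 6.72 CPM of Gzmd, where the other knockout tumors had 100 to 457 CPM. Control tumors 5 and 7 had 6.25 and 15.2 CPM, where the other control tumors had 68.6 to 224 CPM. Gzme was at 3.12 CPM in knockout tumor 1 and at 2.62 and 5.86 CPM in control tumors 5 and 7, and Gzmf at 7.24 CPM in knockout tumor 1 and 6.21 and 13.6 CPM in the control pair. Knockout tumor 1 was the lowest of its group for 7 of the 10 genes, all but Gzmk, Fasl and Ifng, and control tumor 5 for 7 of the 10, all but Prf1, Fasl and Ifng. At the other end, knockout tumor 6 was the highest of its group for 6 genes and knockout tumor 4 for the other 4, and control tumor 4 was the highest of its group for 7.

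**Figure D2:**
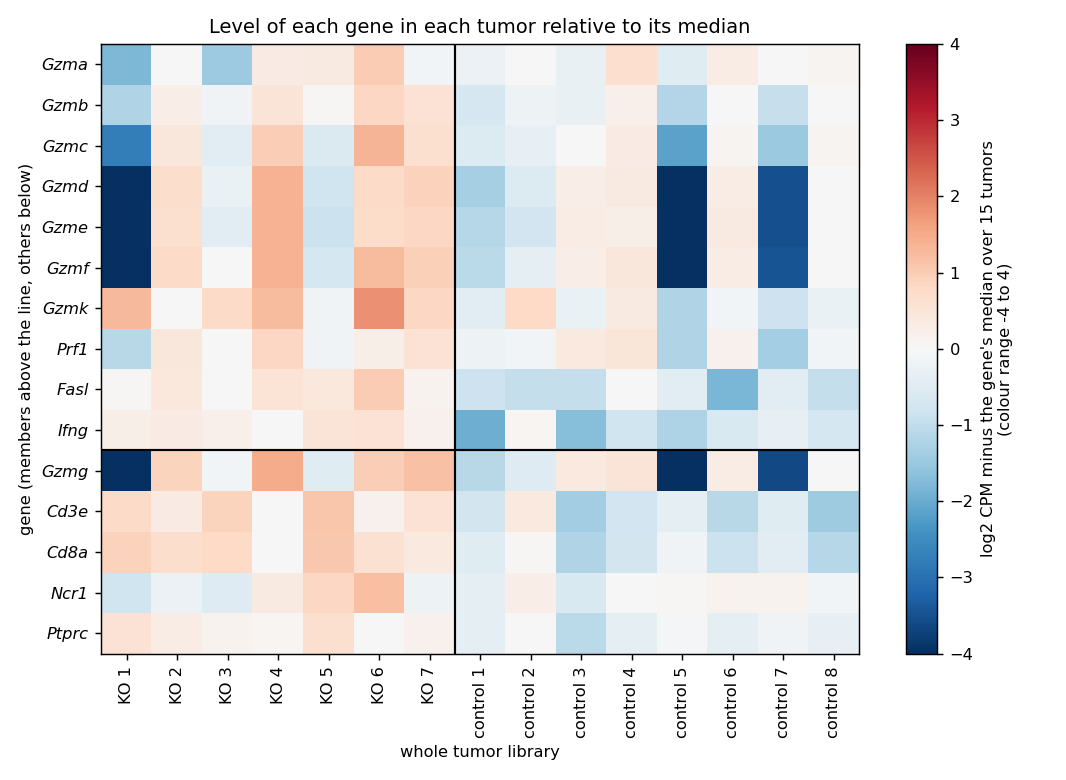
Level of each gene in each whole tumor as log2 CPM minus the gene's median over the 15 tumors, knockout tumors left of control tumors, with the 10 genes above the horizontal line and Gzmg, Cd3e, Cd8a, Ncr1 and Ptprc below it. Colours stop at -4 and 4. Knockout tumor 1 and control tumors 5 and 7 are dark blue for Gzmd, Gzme, Gzmf and Gzmg but not for Cd3e or Cd8a.

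The low levels were uneven within the cluster. The summed level of Gzmb to Gzmg was 102 CPM in knockout tumor 1, against 569 to 1900 CPM in the other knockout tumors. It was 109 and 164 CPM in control tumors 5 and 7, against 411 to 1048 CPM in the other control tumors. Gzmb made up 61.1% of that sum in knockout tumor 1 and 10.7% to 26.3% in the other knockout tumors. In control tumors 5 and 7 it made up 58.8% and 46.2%, and 12.8% to 21.9% in the other control tumors. The ratio of Gzmd to Gzme moved less. It was 2.15 in knockout tumor 1, from 140 and 65 counts, and 2.62 to 2.93 in the other knockout tumors. In control tumors 5 and 7 it was 2.39 and 2.6, within 2.25 to 3.02 for the control group. The low tumors thus had Gzmb in a larger proportion to the rest of the cluster, and knockout tumor 1 had the lowest ratio of Gzmd to Gzme of its group.

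**Figure D3:**
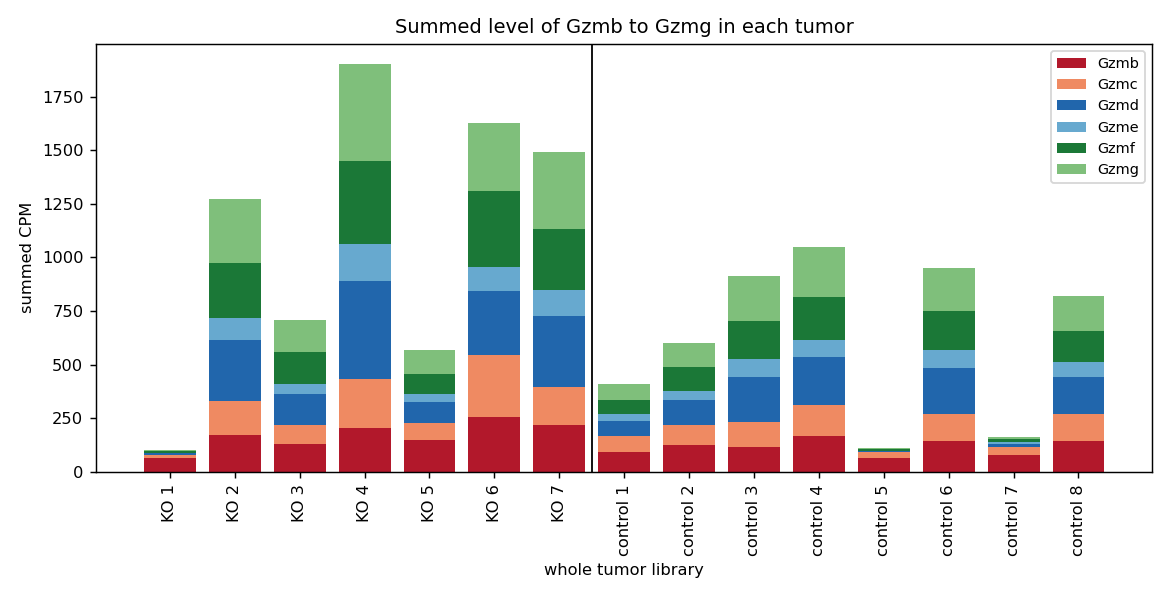
Stacked CPM of Gzmb, Gzmc, Gzmd, Gzme, Gzmf and Gzmg in each whole tumor, knockout tumors left of control tumors. Knockout tumor 1 sums to 102 CPM and control tumors 5 and 7 to 109 and 164 CPM, and in these Gzmb is the largest part.

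The T cell genes of the low tumors were not low. Cd8a, which marks cytotoxic T cells, was at 52.8 CPM in knockout tumor 1, within 28.1 to 59.3 CPM for the knockout group, and at 25.3 and 21.2 CPM in control tumors 5 and 7, within 12.2 to 28.8 CPM for the control group. The summed level of the 11 T cell markers was 163 CPM in knockout tumor 1, the second highest of that group, and 87.3 and 70.5 CPM in control tumors 5 and 7, with only control tumor 2 above both. The summed natural killer cell markers were 72.7 CPM in knockout tumor 1 and 42.2 and 39.5 CPM in control tumors 5 and 7, all inside the ranges of the other tumors of their group. Ncr1, a natural killer cell receptor, was lowest of its group in knockout tumor 1, at 4.75 CPM. The same tumor had a summed level of 89.5 CPM for 4 skeletal muscle genes, where the other knockout tumors had 1.42 to 17.1 CPM and control tumors 0.305 to 9.63 CPM. Control tumors 5 and 7 had 0.644 and 2.66 CPM of the same genes. Purified knockout cells held them at 2.07 to 29.4 CPM and the cultured knockout at 3.55 CPM. Cultured cells of control lines 1 and 2 had 0.11 and 0.258 CPM. Whether these transcripts came from muscle or from the knockout cells, and their part in the low granzyme levels, was not tested. The summed level of the 7 macrophage markers was 1826 CPM in knockout tumor 1, within 791 to 1955 CPM for the knockout group, and 1567 and 1082 CPM in control tumors 5 and 7, within 501 to 1567 CPM for the control group. Control tumor 5 was thus the highest of its group for macrophage markers and only knockout tumor 5 was above knockout tumor 1 in the other, and the part of macrophages in the low granzyme levels was not tested. Library totals of these 3 tumors were 20591957, 20613080 and 20172227 expected counts, among the larger ones.

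Within each genotype the granule genes varied together. Over Gzmb, Gzmc, Gzmd, Gzme, Gzmf and Prf1, Pearson's r of log2 CPM between 2 genes was 0.894 to 0.999 among the 7 knockout tumors. There 14 of 15 pairs passed an exact permutation test adjusted over 110 correlations (largest adjusted p = 0.0546). Among the 8 control tumors r was 0.876 to 0.999, and 15 of 15 pairs passed (largest adjusted p = 0.0217). Without the 2 tumors farthest from the median the lowest r was 0.53 in the knockout group and 0.553 in the control group, and by Spearman's rho the largest adjusted p was 0.206 and 0.129 in the same order, so some of these relations rest on the tumors left out. Gzmd and Gzme gave r = 0.999 and rho = 1 among knockout tumors (permutation adjusted p = 0.00312 and 0.0109) and r = 0.998 and rho = 0.929 among control tumors (adjusted p = 0.00312 and 0.0218), and r without the 2 farthest tumors was 0.999 and 0.976. Gzmd and Prf1, on different chromosomes, gave r = 0.974 and rho = 0.964 among knockout tumors (adjusted p = 0.00468 and 0.0218 by permutation) and r = 0.949 and rho = 0.929 among control tumors (adjusted p = 0.0113 and 0.0218), with r = 0.926 and 0.792 without the 2 farthest tumors. Gzmd and Gzme share close sequence, and the part of shared reads in their relation was not tested.

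The other genes followed other patterns. Gzma and Gzmd gave r = 0.727 and rho = 0.393 among knockout tumors (permutation adjusted p = 0.127 and 0.558) and r = 0.573 and rho = 0.69 among control tumors (adjusted p = 0.303 and 0.17). Gzmd and Ifng gave r = -0.0673 among knockout tumors and 0.0349 among control tumors (permutation adjusted p = 0.979 each). Gzma and Fasl gave r = 0.864 and rho = 0.929 among knockout tumors (permutation adjusted p = 0.0248 and 0.0419), kept at r = 0.955 without the 2 farthest tumors, but r = 0.0953 among control tumors (adjusted p = 0.953). None of the 10 genes passed against Cd3e in either genotype, with r of -0.65 to 0.262 among knockout tumors and -0.476 to 0.489 among control tumors. At an unadjusted permutation p under 0.05 the counts against Cd3e were 0 and 0 by Pearson's r, and 4 and 0 by Spearman's rho.

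**Figure D4:**
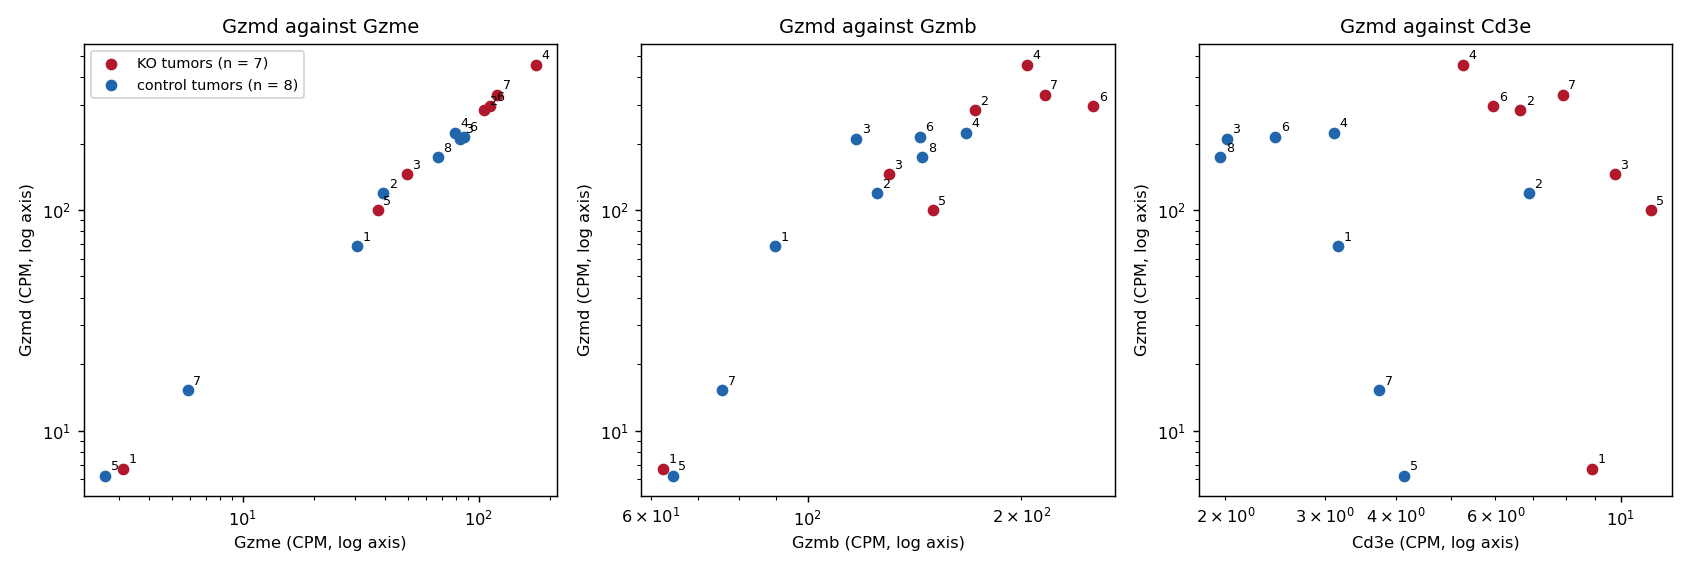
Gzmd against Gzme, Gzmb and Cd3e in whole tumors (CPM, log axes), knockout tumors in red and control tumors in blue, numbered by replicate. Gzmd follows Gzme over the whole range in both genotypes, and knockout tumor 1 and control tumors 5 and 7 lie at 6.72, 6.25 and 15.2 CPM of Gzmd with 8.88, 4.14 and 3.74 CPM of Cd3e.

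Genes were also ranked by likeness over the 15 tumors, as r of log2 CPM after centring on each genotype, among 12844 genes averaging 1 CPM or more. Since all tumors share this centring and the 3 low tumors, r is a description here. Gzmd was most like Gzmg (0.999), Gzme and Gzmf (0.998 each). Leaving out granzymes, a step chosen after these values were seen, it was most like Fcrl6 (0.98), an Fc receptor-like gene, Dsc2 (0.967), a desmosomal cadherin, and B4galnt2 (0.957), a glycosyltransferase. Gzmb was most like Gzmc (0.97), the carbonic anhydrase gene Car2 (0.959) and Gzmf (0.939), and Gzmc like Gzmb, Gzmf and the killer cell receptor gene Klrg1 (0.967). Prf1 was most like Gzme, B4galnt2 (0.962 each) and Fcrl6 (0.96).

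Gzma was most like Car2 (0.855), Hopx (0.846), a homeodomain gene, and Gem (0.844), a small GTPase gene, and Ncr1 ranked 5 at 0.814. Ifng was most like the small GTPase gene Rab29 (0.924), the adaptor gene Hcst (0.905), whose product signals for the receptor NKG2D, and the chemokine gene Ccl4 (0.865). Fasl was most like Rab26os (0.836), Zfp950 (0.826) and Ndufb10 (0.822). Cd8a had r of -0.612 with Gzmd and -0.265 with Gzma, but 0.38 with Ifng and 0.11 with Fasl. Il2ra, the high-affinity interleukin 2 receptor chain, and Serpinb9b, an inhibitor related to those of granzyme B, were looked at after their values were seen and had r of 0.894 and 0.891 with Gzmd. Il2ra was at 2.11 CPM in knockout tumor 1 against 4.17 to 12.8 CPM in the other knockout tumors, and at 2.39 and 2.71 CPM in control tumors 5 and 7 against 3.03 to 12.7 CPM in the other control tumors.

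The T cell marker level differed so much between genotypes that it could hardly be told apart from them. The mean log2 CPM of Cd3d, Cd3e and Cd3g was 3.63 ± 0.259 in knockout tumors and 2.32 ± 0.419 in control tumors, and genotype held 79.7% of its variance. With this mean as a covariate none of the 10 genes was called by edgeR, and none had an unadjusted p under 0.05, where 0.175% of all genes were higher and 0.793% lower. The log2 fold change was then 0.07 ± 0.39 for Ifng (edgeR adjusted p = 0.962) and 0.77 ± 0.50 for Fasl (adjusted p = 0.583). The level of Ptprc, the pan-leukocyte gene, was also partly bound to genotype, which held 55.6% of the variance of its log2 CPM. After centring on each genotype, Ptprc had r of -0.594 with Gzmd and -0.63 with Prf1, but 0.54 with Ifng. With Ptprc as covariate, Fasl stayed called (1.16 ± 0.33, edgeR adjusted p = 0.0291), where 4.25% of all genes were higher and 5.57% lower. Ifng (0.54 ± 0.28, adjusted p = 0.226) and Gzmk (1.32 ± 0.50, adjusted p = 0.0972) did not pass. At an unadjusted p under 0.05, 8 of the 10 genes were higher. The share of all genes at that unadjusted threshold was not counted, so 8 of 10 is not read as particular to these genes. Under either covariate the estimates of Gzmb to Gzmf and Prf1 were larger, as for Gzmd with 2.62 ± 1.49 under the Cd3 genes and 2.48 ± 1.11 under Ptprc, and none of them passed.

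**Figure D5:**
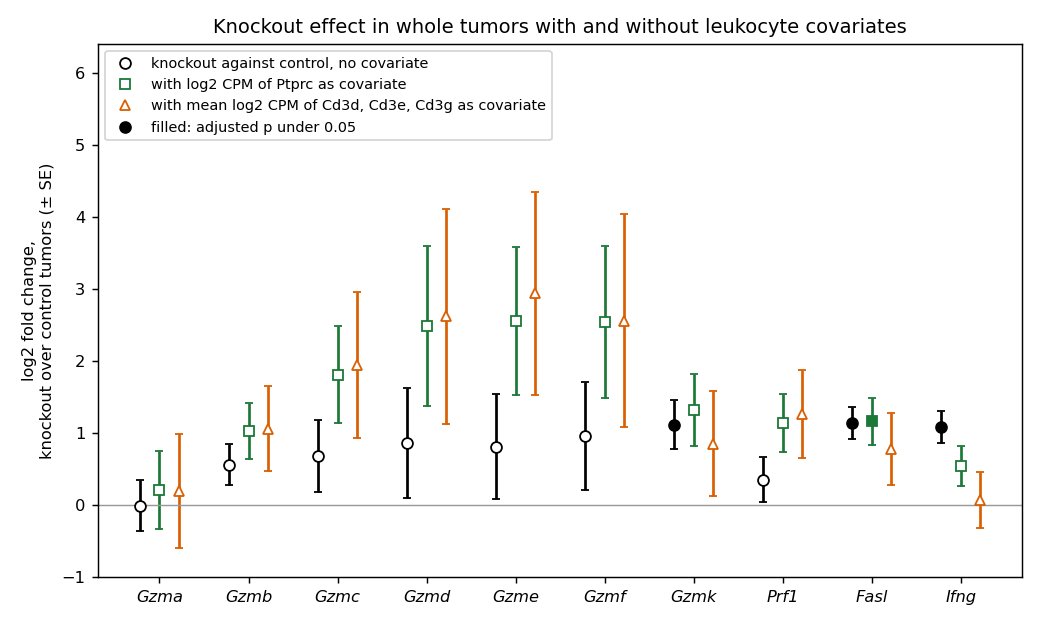
Log2 fold change of knockout over control tumors (± SE) for the 10 genes without a covariate (circles), with log2 CPM of Ptprc (squares) and with the mean log2 CPM of Cd3d, Cd3e and Cd3g (triangles); filled symbols have an edgeR adjusted p under 0.05. Fasl, Ifng and Gzmk are filled without a covariate, Fasl alone with Ptprc, and none with the Cd3 genes, where Ifng lies at 0.07.

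Genes that act with these effectors were read from 9 lists. Of 68 genes 63 were tested in tumors, 28 rose and 8 fell, beside the 18.1% and 19.0% of all genes given above. Among genes of granule content 5 of 7 rose and 0 fell. These included Cst7, an inhibitor of the cathepsin that matures granzymes (1.17 ± 0.19, edgeR adjusted p = 0.000182), Nkg7, a granule membrane protein (0.80 ± 0.17, adjusted p = 0.00196), and Srgn, the granule proteoglycan (0.40 ± 0.11, adjusted p = 0.0102). Among genes of granule release 3 of 7 rose and 2 fell. Of the fusion proteins Vamp8 was higher (0.51 ± 0.08) and Vamp7 lower (-0.50 ± 0.09), and Lyst, needed for granule sorting, was lower (-0.38 ± 0.07). Cultured CT26 cells held these transcripts too. Vamp8 had 63.8 CPM in the cultured knockout, 55.9 CPM in control line 1 and 61.4 CPM in control line 2. In the same order Vamp7 had 29.2, 45.4 and 46.9 CPM, and Lyst 18.9, 24.8 and 34.8 CPM. The part of the tumor cells in these changes was not tested.

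Among other ligands and cytokines 5 of 7 tested genes rose, such as the death ligand Tnfsf10 (0.62 ± 0.12) and Ccl4 (0.80 ± 0.19). Purified tumor cells also held Tnfsf10, with means of 18.9 CPM in the knockout, 12.8 CPM in control line 1 and 5.96 CPM in control line 2. For Ccl4 these means were 0.285, 0.0606 and 0.0494 CPM. Among transcription factors 3 of 10 rose and 4 fell, with Eomes, a T-box factor of cytotoxic cells, higher (1.31 ± 0.21, edgeR adjusted p = 0.0002), Batf higher (0.95 ± 0.17) and Prdm1, which encodes Blimp-1, lower (-0.70 ± 0.15, adjusted p = 0.00135). Of 12 cytokine and receptor genes 6 rose and 0 fell, including Il2rb, shared by the interleukin 2 and 15 receptors (0.67 ± 0.12), Il15ra (0.51 ± 0.10) and Il21r (0.73 ± 0.18). In purified cells Il15ra averaged 20.9 CPM in the knockout, 11.6 CPM in control line 1 and 9.57 CPM in control line 2. There Il2rb averaged 0.398, 0.583 and 1.61 CPM in the same order, and Il21r 0, 0.0568 and 0.0494 CPM. The part of the tumor cells in the changes of this paragraph was not tested.

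On the side of the target cell, 1 of 8 genes rose and 2 fell. The initiator caspase gene Casp8 was higher (0.47 ± 0.06, edgeR adjusted p = 3.48e-06), and Igf2r, a proposed entry receptor for granzyme B (-0.30 ± 0.08), and the death receptor gene Tnfrsf10b (-0.24 ± 0.08) were lower. Of the serpin inhibitors 1 of 3 rose, Serpinb6b (0.44 ± 0.15, edgeR adjusted p = 0.0254), and Serpinb9, the granzyme B inhibitor, had 0.19 ± 0.11 (adjusted p = 0.179). Of 8 genes of interferon gamma response 4 rose and 0 fell, such as Socs1 (0.58 ± 0.11) and Cxcl10 (0.52 ± 0.14). Purified cells held both. Socs1 averaged 40.8 CPM there in the knockout, 24.8 CPM in control line 1 and 32.8 CPM in control line 2. Cxcl10 averaged 53.7, 22.7 and 13.4 CPM in the same order, and the part of the tumor cells in these rises was not tested. Of the other granzymes, Gzmg had 0.96 ± 0.79 (edgeR adjusted p = 0.362), and Gzmm (means of 0.493 CPM in knockout tumors and 0.413 CPM in control tumors) and Gzmn (0.155 and 0.107 CPM in the same order) were not tested.

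Purified tumor cells held almost none of these transcripts. All 10 genes were higher in whole tumors than in purified cells in the knockout (31.6% of 15033 tested genes were) and in control line 1 (29.6%), by edgeR at an adjusted p under 0.05. Gzmb had 0.321 and 0.29 CPM in purified knockout cells and 2.12 and 1.43 CPM in purified cells of control line 1, and the log2 fold change of tumors over purified cells was 9.11 ± 0.85 in the knockout and 6.06 ± 0.68 in control line 1. Prf1 had 0.0918 and 0.194 CPM in purified knockout cells and 0.303 and 0.318 CPM in those of control line 1, with log2 fold changes of 8.88 ± 1.04 and 7.44 ± 0.96 in the same order. Fasl and Ifng had 0 counts in both purified knockout libraries, so that knockout tumors were at least 59.8-fold and 134-fold higher, taking 3 counts over the group as the floor. In control line 1, Gzmd, Gzme, Gzmf and Gzmk were no longer called when either of its purified libraries was left out (6 of 10 genes called), and in the knockout Gzme when the first was. The lone purified library is then assumed to vary like the other groups. Their log2 fold changes stayed close, such as 6.13 to 6.62 for Gzmf and 2.88 to 3.05 for Gzmk in control line 1, and 8.18 for Gzme in the knockout.

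Between purified cells of the 2 genotypes, 6 of the 10 genes passed the filter on low counts and edgeR called 0, where 2.26% of 12476 genes were higher and 2.29% lower. At an unadjusted p under 0.05, 4 were lower, with the share of all genes at that threshold not counted, and DESeq2 called 1 lower. Gzmc had 0.138 and 0.145 CPM in knockout cells, 1.09 and 1.22 CPM in control line 1 and 1.16 and 0.416 CPM in control line 2, and its log2 fold change was -2.71 ± 0.73 (edgeR adjusted p = 0.0698). Gzmb, with 1.84 and 0.416 CPM in control line 2, had -2.21 ± 0.73 (edgeR adjusted p = 0.125). In both genes the knockout libraries lay below all 4 control libraries, as they did in 18.1% of tested genes. Against control line 1 alone, 4 of 5 tested genes, Gzmb, Gzmc, Gzmd and Gzmf, were called lower by edgeR, where 12.8% of 12201 genes were, Gzmb by -2.49 ± 0.55 (adjusted p = 0.00703) and Gzmc by -2.96 ± 0.66 (adjusted p = 0.00715). Against control line 2 alone, Gzmd was the only one of the 10 tested and was not called (-1.74 ± 0.89, edgeR adjusted p = 0.202), where 8.85% of 12219 genes were lower. In the authors' deposited table, which runs control over knockout, Gzmb stood at 2.18, Gzmc at 2.57 and Gzmf at 2.31 (DESeq2 adjusted p = 0.0316, 0.0237 and 0.0404).

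On average Ptprc moved the same way in these libraries, but not all leukocyte markers did. Summed macrophage markers were 4.96 to 6.39 CPM in purified knockout cells, 14.4 to 16.7 CPM in control line 1 and 11.6 to 21.4 CPM in control line 2. In the same order, T cell markers overlapped, at 0.597 to 1.6, 0.9 to 2.48 and 0.185 to 1.53 CPM. Natural killer cell markers had 0.194 to 0.321, 0.606 to 0.741 and 0.0462 to 0.685 CPM. Ptprc had 0.459 and 0.581 CPM in purified knockout cells, 1.58 and 2.01 CPM in those of control line 1 and 2.26 and 0.554 CPM in those of control line 2, so the library of control line 2 with little Gzmb also had little Ptprc. The mean of Gzmb over that of Ptprc was 0.588 in purified knockout cells, 0.99 in control line 1 and 0.801 in control line 2, and in whole tumors it was 0.901 in the knockout and 0.941 in control line 1. For Gzmc this ratio was 0.272 in purified knockout cells, 0.643 in control line 1 and 0.558 in control line 2, and 0.785 in knockout tumors and 0.75 in control tumors. For Gzmf it was 0.458 in purified knockout cells, 0.781 in control line 1 and 0.752 in control line 2. The knockout ratios of Gzmb, Gzmc and Gzmf were thus below those of both control lines, from few counts and with no test. For Prf1 the ratio was 0.274 in purified knockout cells, between 0.173 in control line 1 and 0.306 in control line 2. The part of leftover leukocytes in the purified values was not tested. The knockout effect in tumors minus that in purified cells was called by edgeR for 0 of the 10 genes (4.83% of 15033 genes were higher and 5.27% lower), 2 had an unadjusted p under 0.05, and DESeq2 called Gzmb and Gzmc. It was 3.05 ± 1.33 for Gzmb (edgeR adjusted p = 0.162) and 4.93 ± 1.74 for Fasl (adjusted p = 0.0717).

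Of the 68 genes that act with these effectors, 44 were tested in purified cells, and edgeR called 3 higher and 2 lower in the knockout. Over all 12476 genes tested there, 2.26% were higher and 2.29% lower, so these small counts are not read as particular to the lists. The chemokine genes Ccl5 (2.23 ± 0.24) and Cxcl10 (1.58 ± 0.28) and Il15ra (0.99 ± 0.19) were higher, and Vamp7 (-1.07 ± 0.19) and the interferon gamma receptor gene Ifngr1 (-0.95 ± 0.13) were lower. Eomes had 2.02 and 3.82 CPM in purified knockout cells, 0.182 and 0.741 CPM in those of control line 1 and 0 and 0.139 CPM in those of control line 2 (3.44 ± 0.85, edgeR adjusted p = 0.0582). Both knockout libraries were above all 4 control libraries for Eomes, as they were in 16.5% of tested genes. In culture Eomes had 1.13 CPM in the knockout, 0 CPM in control line 1 and 0.103 CPM in control line 2, with 1 library each.

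Cultured cells gave 1 library per line, and no test was fitted here. They had 0 counts of Fasl in all 3 lines, which allows up to 0.148 CPM in the knockout, 0.165 CPM in control line 1 and 0.155 CPM in control line 2. The largest value of any of the 10 genes in culture was 0.826 CPM, for Gzmd in control line 2. Gzmb had 0.394 CPM in the knockout, 0.329 CPM in control line 1 and 0.258 CPM in control line 2, from 8, 6 and 5 counts. The authors' deposited table of cultured cells, which runs control over knockout, gave Gzmd 0.38 ± 2.02 and Gzmf -1.13 ± 1.84 on the log2 scale (DESeq2 adjusted p = 1 each). Such floors cover counting error only.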

How the data were processed

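The submitters' processing notes name FastQC, STAR, RSEM and DESeq2 and the build mm10, and tool versions are not given in the sources used here. The authors deposited, per library, RSEM output holding an expected count, a TPM and an FPKM value for each gene. FPKM values by the authors were not used. Their 3 deposited DESeq2 tables hold, per the file headers, a signal (the mean normalised count), log2 fold changes and their SE, the Wald statistic as a score, and p-values. Because Sun1 is positive there, those tables run control over knockout.

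Expected counts were rounded. Comparisons were fitted in R 4.3.3 with edgeR 4.0.16, scaled by TMM and filtered by filterByExpr (counts of at least 10 and a total of at least 15), with the robust quasi-likelihood F test and Benjamini-Hochberg adjustment over all genes tested, at a threshold of 0.05, all two-sided. DESeq2 1.42.0 was an alternative. The steps were tested on simulated data. CPM came from TMM scaling over all 24 libraries, log2 CPM with a prior count of 2. The authors' TPM served only to order genes by level. Correlations used exact permutation tests. Counts at an unadjusted p were taken for the 10 genes only, with no share of all genes beside them. Named genes are the 10 genes, up to 3 with the smallest p in each list, 5 fixed cell markers and the 3 most like genes per gene. The genes and lists were chosen with earlier results of these data known. Replicates of a group differed by a chi-square per gene of at least 7.38, so none was taken as a repeat of another. Deviations of tumors with the same replicate number correlated at -0.128 to 0.248 and those of purified cells at 0.0277 to 0.0364. With 2 libraries per group the purified value is the same for both numbers, so it cannot decide a pairing. The main fits took the samples as unpaired. Columns of unmapped samples numbered 0.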

Additional observations from a re-analysis of the deposited data

Results flagged for a closer look

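Knockout tumor 1 stood apart from the other knockout tumors for 3 genes by Dixon's gap test on log2 CPM, in which the gap to the next tumor is divided by the range of the group. The share was 0.639 for Gzmd, 0.635 for Gzmf and 0.614 for Gzme, each above the 95% critical value for 7 samples. On the CPM scale 0 of the 20 groups of gene and genotype passed, so the call depends on the scale, and log2 was added after the data had been seen. Chance flags about 1 in 20 groups, and these 3 genes vary together and are close copies, so they do not count as separate results. Control tumors 5 and 7, with similar levels, were not flagged, since each lies near the other.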

How the results depend on the processing

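In tumors 3 genes rose and 0 fell under the other scaling, without the filter, under DESeq2, with the cluster genes summed and with the replicate block (4980 genes called with the block, 5107 without). Leaving out each tumor gave 3 to 4 that rose, 0 that fell and 4523 to 5158 genes called. With the Cd3 covariate 0 rose (133 genes called) and with Ptprc 1 rose (1351 called). Gzma, never called, changed sign under several alternatives, at 0.00 under DESeq2, 0.19 and 0.21 with the Cd3 and Ptprc covariates and -0.27 to 0.16 with 1 tumor left out, including 0.16, 0.14 and 0.01 without knockout tumors 1, 3 and 7 and 0.11 and 0.03 without control tumors 4 and 6. In purified cells the 282 higher and 286 lower genes became 908 in all without the filter, 1205 under DESeq2, 303 with the replicate block, 2896 against control line 1 alone and 2322 against line 2 alone. Leaving out each library gave 72 to 540 genes, 0 of the 10 higher and 0 to 2 lower (2 without the second library of control line 2). DESeq2 called 1 lower and control line 1 alone 4 lower. The difference between tumors and purified cells had 2 of the 10 called under DESeq2, and 546 to 1705 genes called with 1 library left out (0 of the 10). For tumors over purified cells, leaving out a purified library gave 9 to 10 genes higher in the knockout and 6 to 10 in control line 1. Among knockout tumors 16 correlations passed by Pearson's r and 8 by Spearman's rho. The gap test passed in 0 groups on CPM and 3 on log2 CPM. The causes were not tested. Depth limits Gzmk, Fasl and all values of purified and cultured cells, which rest on few counts.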

Other observations

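Il2, the T cell growth factor whose receptor chain Il2ra varied with the granzymes, had at most 2 counts in any whole tumor. It had 0 counts in 3 of the 7 knockout tumors and in 6 of the 8 control tumors, which at this depth gives no level to compare.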
